A study of Homo sapiens with 4 samples.

Results

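The complement components and regulators examined here were 9 genes, taken by symbol and Ensembl identifier from the 58735 genes counted in each library: the classical pathway proteases C1R and C1S, the central component C3, the alternative pathway protease factor B (CFB), the soluble regulators SERPING1 and CFI, and the membrane regulators CD46, CD55 and CD59. All 9 had at least 10 reads in some library, the minimum for testing, which 19895 genes met. Complement is a cascade of plasma proteases that tags surfaces with fragments of C3 and can end in a pore through the membrane. The classical pathway starts when C1s, activated by C1r, cuts C4 and C2. The alternative pathway is driven by factor B bound to C3b, and host cells hold both in check with inhibitors in the fluid and on their own surface. The liver is the main source of the plasma components, and tumour cells commonly carry the membrane inhibitors.

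RNA-seq was performed on the human HCC line MHCC-97H, a metastatic line labelled as wild type, and each condition had 1 library, 4 in all. Cells received PBS, or 2 μg of migrasomes (Migs, vesicle-filled bodies that moving cells leave on their retraction fibers), for 24 h. Normo-Migs were collected from MHCC-97H cells in normoxia, hypo-Migs from such cells in hypoxia, and CD147KO-Migs from hypoxic MHCC-97H cells in which CD147 had been knocked out. CD147 was therefore deleted in the cells that released the Migs and not in the cells sequenced, the oxygen level used for the hypoxic Migs was not given in the sources used here, and all libraries were labelled batch 1.

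Reads on genes numbered between 33882496 and 40285223 per library. The PBS library stood apart from the Mig libraries. Its log2 values correlated with theirs at a Pearson's r of 0.894 to 0.896 over 19895 genes, against 0.984 to 0.985 between Mig libraries, where genes are not independent replicates. For 251 genes it had at most 3 reads where every Mig library had 100 or more, and no Mig library showed such genes against the other libraries (0 genes). Fibroblast or stellate cell genes summed to 23.7 reads per 1000000 reads on genes (CPM) with PBS and to 545 to 601 with Migs, chiefly from COL1A1 (681 reads with PBS, 3472 to 4017 with Migs), PDGFRB (70 and 1747 to 2446 reads) and SPARC, which had 0 reads with PBS and 13404, 16845 and 15206 after normo-Migs, hypo-Migs and CD147KO-Migs. Of the 7 genes on that list 5 had more reads in every Mig library than with PBS, whereas COL1A2 had 2 reads with PBS and 0 with Migs, and COL3A1 had 27 with PBS and 14 to 27 with Migs. The non-coding RNA H19 ran the other way, with 798, 0, 27 and 2 reads in the order PBS, normo-Migs, hypo-Migs and CD147KO-Migs. Leukocyte genes summed to 1.92 CPM with PBS and 6.06 to 6.45 CPM with Migs. CSF1R (18 reads with PBS, 123 to 174 with Migs) and CD14 (14 and 47 to 86) were higher with Migs. MARCO (21 and 0 to 4 reads), CD68 (6 and 0 to 2) and CD163 (4 and 0) were lower, and PTPRC and LYZ had at most 8 reads. Endothelial genes summed to 3.54 to 5.68 CPM over all libraries. PECAM1 was higher with Migs (16 and 118 to 146 reads), whereas CDH5 (84 and 30 to 72) and VWF (7 and 0 to 2) were lower. Erythroid genes set the normo-Migs library apart, summing to 0.148 CPM with PBS and to 3.675, 0.571 and 0.371 CPM with normo-Migs, hypo-Migs and CD147KO-Migs. HBA2 had 99, 7 and 1 reads and HBA1 28, 16 and 12 in these Mig libraries, and HBB had 0 reads in every library. Of 10 hepatocyte genes, ALB, APOB, APOC3 and TTR had 0 reads in every library, as did the hepatoma markers AFP and GPC3. The other secreted products on that list had at most 11 reads in any library, while the transcription factor HNF4A had 134 to 246 reads. The part of these differences in the results was not tested. Whether the PBS cells and the cells given Migs came from the same culture was not given in the sources used here, so in every contrast with PBS a difference between cultures and a difference made by Migs cannot be told apart, and "rose" and "fell" describe the libraries. The contrasts among Mig libraries do not compare reads of the PBS library, although that library entered the scaling and the choice of genes tested.

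For each pair of libraries, reads scaled by TMM were tested with edgeR's exact binomial test (two-sided), with adjustment over all genes tested. The criteria were those of the study, so a gene passed where its adjusted p was at most 0.05 and its level differed at least 2-fold. With 1 library per condition the spread between cultures is unknown, and what is compared is libraries rather than conditions. No molecular identifiers are described for the reads, so the 95% intervals given cover counting error only. Less RNA per cell and fewer cells carrying the RNA cannot be told apart in bulk samples.

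Levels were compared between genes in FPKM, the reads per gene length and library size. The membrane regulators and C3 were the abundant members. CD55, which speeds the decay of C3 convertases, had the highest level in every library, at 132 FPKM with PBS, 121 after normo-Migs, 123 after hypo-Migs and 115 after CD147KO-Migs, within the top 1.43% of the genes tested. C3 ranged from 70.5 to 93.0 FPKM and CD46, the cofactor with which factor I inactivates C3b, from 55.8 to 81.7, so that the order of these 2 genes changed between libraries. CD59, which blocks the membrane pore, followed at 18.1 to 24.3 FPKM, then C1S at 11.6 to 14.9 and C1R at 4.65 to 9.70, and these ranges did not overlap. CFB (0.384 to 0.560 FPKM), SERPING1 (0.0323 to 0.786) and CFI (0.0119 to 0.167) had the lowest levels. The range of SERPING1 overlapped both others, and those of CFB and CFI were apart. The membrane regulators together reached 2.92 times the FPKM of C3 with PBS, 2.99 times with normo-Migs, 2.82 times with hypo-Migs and 2.36 times with CD147KO-Migs.

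**Figure D1:**
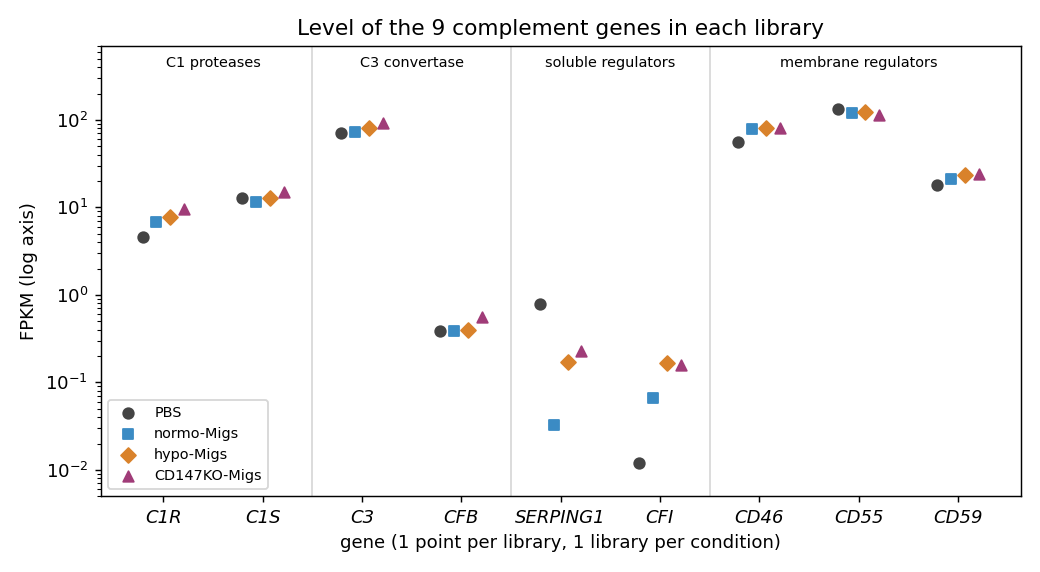
FPKM (log axis) of the 9 genes, with 1 point per library and genes ordered by role. CD55 is highest in every library at 115 to 132 FPKM, and the libraries lie farthest apart for SERPING1 and CFI.

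Several members share exons with neighbouring genes in GENCODE release 29, whose coordinates equal those of the files. The shared part was 45.47% of the exonic bases of CFB, nearly all with the read-through gene AL645922.1, 32.04% of CFI with AC126283.2, 11.42% of C1R with C1RL, 6.073% of CD59 and 3.544% of C1S. AL645922.1 and AC126283.2 had 0 reads in every library. How shared reads and strands were counted was not given in the sources used here, so the levels of CFB and CFI relative to other genes are uncertain, while the 4 libraries were counted on the same gene models. C3, SERPING1, CD46 and CD55 shared 0% of their exonic bases.

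Upstream sequence in RefSeq (GRCh38.p14) was matched for 6 of the 9 members, CFI, C1R, CFB, CD46, CD55 and CD59. Stretches within 250 bases of a transcription start, outside the untranslated regions that GENCODE gives these genes, are shown for CFI and C1R, the matched members that passed the criteria in some pair, and for CD46, the membrane regulator whose reads lay furthest from PBS. They are read 5′ to 3′ on the strand of the gene, with matches to searched motifs in capitals. The CFI stretch (chr4:109802180-109802249, minus strand) holds a CCAAT box in reverse, and the CD46 stretch (chr1:207751804-207752053, plus strand) a CCAAT box and 3 GC boxes in reverse. The C1R stretch (chr12:7092608-7092695, minus strand), before the start farthest upstream, holds none of the motifs. A STAT site lies before the second start of C1R, in a window (chr12:7091894-7092143) whose 250 bases all fall in exons that GENCODE gives to C1R, and that window is not shown.
CFI: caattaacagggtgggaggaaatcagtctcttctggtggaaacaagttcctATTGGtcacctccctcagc
C1R: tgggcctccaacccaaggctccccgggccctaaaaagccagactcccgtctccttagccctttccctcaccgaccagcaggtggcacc
CD46: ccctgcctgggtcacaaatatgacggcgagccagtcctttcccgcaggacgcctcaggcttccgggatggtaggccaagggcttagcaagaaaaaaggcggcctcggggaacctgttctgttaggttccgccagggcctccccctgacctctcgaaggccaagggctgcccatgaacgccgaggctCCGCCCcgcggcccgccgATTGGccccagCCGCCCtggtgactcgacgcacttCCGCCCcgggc

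The motifs searched on both strands were the TATA box (TATAAA), the CCAAT box, the GC box (GGGCGG), the STAT site TTCNNNGAA, the interferon response element GAAANNGAAA, the NF-kB site GGGNNTTTCC and the core of the hypoxia response element, ACGTG. They occurred in 10.7%, 32.0%, 42.6%, 6.57%, 3.02%, 1.73% and 18.5% of 35116 upstream windows of the same length, respectively. The CFB window held a TATA box, a STAT site and an interferon response element, at 30 to 25, 92 to 84 and 140 to 131 bases before the start. All 250 bases of that window fall in exons that GENCODE gives to CFB. The core of the hypoxia response element occurred in 1 window of CD59, 75 to 71 bases before a start. Other CD59 windows held a STAT site, 128 to 120 or 184 to 176 bases before a start. A match describes these letters only and says nothing about binding.

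SERPING1 (chr11:57597387-57614853, GRCh38) encodes the C1 inhibitor, the serpin that inactivates C1r and C1s, and it had the widest range of the 9 genes (4.06 on the log2 scale). It had 98 reads with PBS, 4 after normo-Migs, 25 after hypo-Migs and 29 after CD147KO-Migs, or 2.89, 0.116, 0.621 and 0.828 CPM. The PBS library was highest and the normo-Migs library lowest, and their counting intervals (2.37 to 3.52 CPM with PBS, 0.0450 to 0.298 CPM with normo-Migs) were apart from those of the other libraries, whereas those of hypo-Migs (0.420 to 0.916 CPM) and CD147KO-Migs (0.576 to 1.19 CPM) overlapped. SERPING1 fell with each kind of Migs against PBS. Its log2 fold change was -2.08 after hypo-Migs (ratio 0.221, interval 0.137 to 0.346, edgeR's exact binomial test, adjusted p = 1.65e-13). With normo-Migs it was -4.06 (ratio 0.0415, interval 0.0111 to 0.110, edgeR's exact binomial test, adjusted p = 1e-23), and with CD147KO-Migs -1.71 (ratio 0.293, interval 0.186 to 0.447, edgeR's exact binomial test, adjusted p = 8.88e-10). Among Mig libraries, it was higher with hypo-Migs than with normo-Migs by 1.98 (ratio 5.33, interval 1.84 to 21.1, adjusted p = 0.00434 by the same exact test). It was lower with normo-Migs than with CD147KO-Migs, at a log2 fold change of -2.35 (ratio 0.142, interval 0.0362 to 0.404, adjusted p = 0.000176 by the same exact test). Hypo-Migs and CD147KO-Migs gave a ratio of 0.756 with an interval of 0.424 to 1.34 (adjusted p = 0.531 by the exact test), so a difference between them was not detectable at this depth. Both differences among Mig libraries rest on the 4 reads of the normo-Migs library, and the first was lost when a coefficient of variation of 0.1 between cultures was assumed.

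Among the genes with the pattern most like SERPING1 were RAB17, VEPH1, SLC2A5 and ALPI, at Euclidean distances of 1.34 to 1.43 between centred log2 CPM over the 4 libraries, among 11441 protein-coding genes averaging 100 reads or more. RAB17 had 813, 70, 106 and 131 reads in the order PBS, normo-Migs, hypo-Migs and CD147KO-Migs. ALPI, the most abundant of them, had 3268, 231, 419 and 374 reads. Each of these 4 genes was highest with PBS and lowest with normo-Migs. They were chosen for likeness to SERPING1 over the same libraries, so the shared order largely follows from the choice.

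CFI (chr4:109740694-109802179) encodes factor I, the plasma protease that cleaves C3b and C4b in the presence of a cofactor. It had 2 reads with PBS, 11 after normo-Migs, 33 after hypo-Migs and 27 after CD147KO-Migs, or 0.0590, 0.318, 0.819 and 0.770 CPM. PBS was thus lowest for CFI and highest for SERPING1, while among Mig libraries normo-Migs was lowest for both. The libraries with hypo-Migs (0.583 to 1.15 CPM) and CD147KO-Migs (0.529 to 1.12 CPM) overlapped in their intervals, PBS lay below both (0.0162 to 0.215 CPM), and the interval of normo-Migs (0.178 to 0.570 CPM) met those of PBS and CD147KO-Migs. CFI rose with each kind of Migs against PBS. The ratio was 14.3 after hypo-Migs (interval 3.66 to 123, edgeR's exact binomial test, adjusted p = 4.11e-07), 5.59 after normo-Migs (interval 1.22 to 51.9, adjusted p = 0.0189) and 13.4 after CD147KO-Migs (interval 3.36 to 116, adjusted p = 3.63e-06). Because PBS had 2 reads, the size of these ratios is poorly fixed, and the log2 fold changes computed with a prior count of 2 were 2.96, 1.74 and 2.87. CFI was also higher with hypo-Migs than with normo-Migs (log2 fold change 1.22, ratio 2.56, interval 1.26 to 5.61, edgeR's exact binomial test, adjusted p = 0.0283). The difference between normo-Migs and CD147KO-Migs did not pass (log2 fold change -1.13, ratio 0.419, interval 0.187 to 0.872, exact test, adjusted p = 0.0553), although it passed when protein-coding genes alone were tested. Hypo-Migs and CD147KO-Migs gave a ratio of 1.07 (interval 0.625 to 1.85, exact test, adjusted p = 0.964). The calls of normo-Migs against PBS and of hypo-Migs against normo-Migs were lost with an assumed coefficient of variation of 0.1 between cultures.

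C1R and C1S encode the paired proteases of the C1 complex, which act together and whose genes lie near each other at chr12:7080199-7092607 and chr12:6988259-7071032. C1R had 946 reads with PBS, 1368 after normo-Migs, 1864 after hypo-Migs and 2019 after CD147KO-Migs, or 27.9, 39.6, 46.3 and 57.6 CPM. No counting intervals of C1R overlapped, and PBS was lowest. C1R rose with CD147KO-Migs against PBS (log2 fold change 1.08, ratio 2.11, interval 1.95 to 2.28, edgeR's exact binomial test, adjusted p = 1.01e-84), where the interval of the ratio includes the 2-fold limit. Its ratio to PBS was 1.71 after hypo-Migs (interval 1.58 to 1.85) and 1.47 after normo-Migs (interval 1.35 to 1.60), both under that limit. C1S had 2833, 2573, 3365 and 3402 reads in the order PBS, normo-Migs, hypo-Migs and CD147KO-Migs, or 83.6, 74.5, 83.5 and 97.1 CPM. Its ratios to PBS were 1.03 after hypo-Migs (interval 0.979 to 1.08), 0.923 after normo-Migs (interval 0.875 to 0.974) and 1.19 after CD147KO-Migs (interval 1.13 to 1.25), and none passed the criteria. Among Mig libraries its ratio was 1.12 for hypo-Migs over normo-Migs (interval 1.06 to 1.17), 0.867 for hypo-Migs over CD147KO-Migs (interval 0.826 to 0.910) and 0.777 for normo-Migs over CD147KO-Migs (interval 0.738 to 0.818). The partners thus differed in how far their reads moved from PBS.

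Counted as a share within each library, which needs no scaling between libraries, C1R made up 25.0% of the C1R and C1S reads with PBS (exact binomial interval 23.7% to 26.4%). The share was 34.7% with normo-Migs (33.2% to 36.2%), 35.6% with hypo-Migs (34.3% to 37.0%) and 37.2% with CD147KO-Migs (36.0% to 38.5%). The PBS library lay below all Mig libraries, and the hypo-Migs interval overlapped those of both other Mig libraries. Per length, C1R stood at 0.367 of the FPKM of C1S with PBS and at 0.584, 0.608 and 0.652 after normo-Migs, hypo-Migs and CD147KO-Migs. C1RL, the neighbour that shares exons with C1R, had 767, 935, 1250 and 1120 reads in the same order, with ratios to PBS of 1.24 to 1.44. Its part in the C1R counts was not tested.

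**Figure D2:**
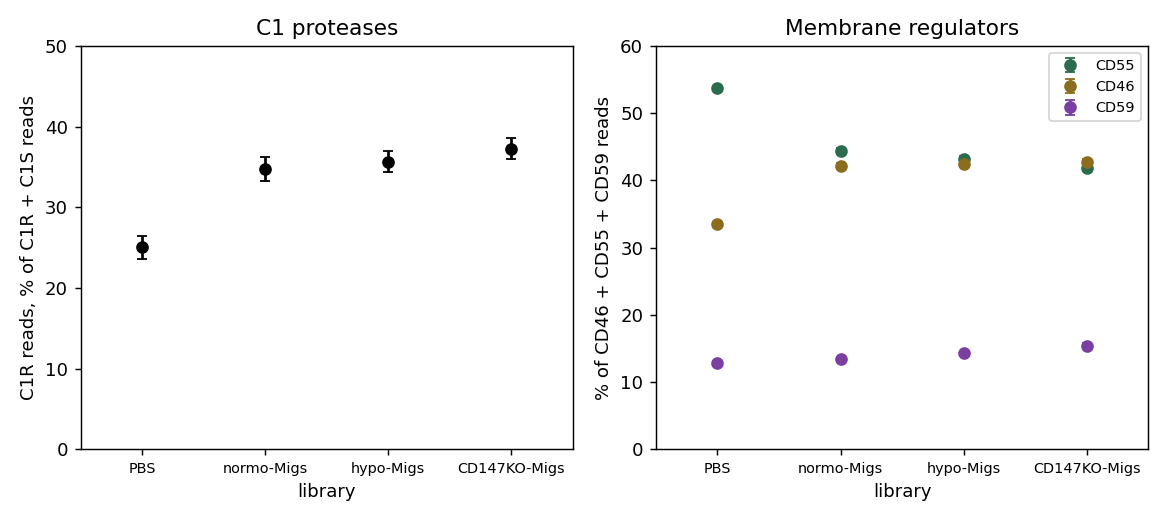
Left, reads of C1R as a percentage of C1R and C1S reads in each library. Right, reads of CD55, CD46 and CD59 as a percentage of their sum. Bars are exact 95% binomial intervals, smaller than the symbols on the right. C1R lies at 25.0% with PBS and between 34.7% and 37.2% with Migs, and CD55 goes from 53.7% with PBS to 41.8% to 44.3% with Migs.

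C3, the component on which all pathways converge, had 20296 reads with PBS, 21044 after normo-Migs, 27210 after hypo-Migs and 27396 after CD147KO-Migs, or 599, 609, 675 and 782 CPM. CD147KO-Migs gave the highest level, followed by hypo-Migs. The ratios to PBS were 1.05 after normo-Migs (interval 1.03 to 1.07), 1.16 after hypo-Migs (interval 1.14 to 1.18) and 1.34 after CD147KO-Migs (interval 1.31 to 1.36). Among Mig libraries, C3 was 0.871 times as high with hypo-Migs as with CD147KO-Migs (interval 0.856 to 0.885) and 1.10 times as high as with normo-Migs (interval 1.08 to 1.12). None of these differences passed the 2-fold criterion. CFB, an acute-phase gene of hepatocytes, had only 67, 66, 80 and 99 reads in the order PBS, normo-Migs, hypo-Migs and CD147KO-Migs, and its ratio to PBS was 1.04 after hypo-Migs (interval 0.739 to 1.45), 1.00 after normo-Migs (interval 0.702 to 1.43) and 1.46 after CD147KO-Migs (interval 1.06 to 2.02). The last of these met the p criterion (edgeR's exact binomial test, adjusted p = 0.0242) and not the 2-fold criterion, and for the others no difference was detectable at this depth. Among Mig libraries the ratio of CFB was 1.03 for hypo-Migs over normo-Migs (interval 0.737 to 1.45), 0.708 for hypo-Migs over CD147KO-Migs (interval 0.521 to 0.961) and 0.685 for normo-Migs over CD147KO-Migs (interval 0.494 to 0.945), and none passed.

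Of the membrane regulators, CD46 had 16804 reads with PBS, 23357 after normo-Migs, 28816 after hypo-Migs and 24605 after CD147KO-Migs, or 496, 676, 715 and 702 CPM. The PBS library was the low one, and the Mig libraries were close together. Ratios of CD46 to PBS were 1.41 after normo-Migs (interval 1.39 to 1.44), 1.49 after hypo-Migs (interval 1.46 to 1.52) and 1.45 after CD147KO-Migs (interval 1.42 to 1.48). CD59 had 6467, 7473, 9730 and 8892 reads in the order PBS, normo-Migs, hypo-Migs and CD147KO-Migs, with ratios to PBS of 1.17 (interval 1.14 to 1.21), 1.30 (interval 1.26 to 1.35) and 1.36 (interval 1.32 to 1.40) for normo-Migs, hypo-Migs and CD147KO-Migs. Among Mig libraries the ratio of CD59 was 1.11 for hypo-Migs over normo-Migs (interval 1.08 to 1.14), 0.959 for hypo-Migs over CD147KO-Migs (interval 0.932 to 0.987) and 0.864 for normo-Migs over CD147KO-Migs (interval 0.837 to 0.891). CD55 was lower than with PBS by a small amount, with 26962, 24560, 29302 and 24037 reads and ratios to PBS of 0.926 (interval 0.910 to 0.942), 0.942 (interval 0.927 to 0.958) and 0.882 (interval 0.867 to 0.897) for the same Migs. No membrane regulator passed the criteria in any pair of libraries.

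Within the reads of the membrane regulators, CD55 took 53.7% with PBS (exact binomial interval 53.2% to 54.1%) and 44.3%, 43.2% and 41.8% with normo-Migs, hypo-Migs and CD147KO-Migs. CD46 took 33.5% with PBS (interval 33.0% to 33.9%) and 42.2%, 42.5% and 42.8% with the same Migs. CD55 and CD46 had similar shares in the Mig libraries, whereas CD55 was ahead by a wide margin with PBS. Among Mig libraries, CD46 and CD55 varied least of the 9 genes. Their ratios lay between 0.975 and 1.07 in every pair, and no pair reached the 2-fold criterion.

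Against PBS, 2 of the 9 genes passed with hypo-Migs (CFI higher, SERPING1 lower), where 28.3% of all genes tested did so, 17.6% higher and 10.7% lower. With normo-Migs the same 2 genes passed, beside 27.2% of all genes (16.6% higher, 10.6% lower). With CD147KO-Migs, C1R, CFI and SERPING1 passed, beside 27.5% of all genes (16.6% higher, 10.8% lower). The share of members called was thus near the background in these contrasts, and the count says nothing particular about complement. CFI, with 2 reads with PBS, was tested only through its reads in Mig libraries. The median log2 fold change of the 9 genes was 0.22 after hypo-Migs, 0.08 after normo-Migs and 0.44 after CD147KO-Migs, beside 0.05, 0.03 and 0.04 over all genes tested. These contrasts share the PBS library and are not independent of each other. With DESeq2, whose dispersion came from treating all 4 libraries as 1 group, 0 genes passed in any pair. Differences between libraries counted there as spread, which left little room for any gene to pass.

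Hypo-Migs against normo-Migs is the contrast that addresses hypoxia of the releasing cells, and 2 of the 9 genes passed in it, CFI and SERPING1, both higher with hypo-Migs. Over all genes 4.87% passed, 2.55% higher and 2.32% lower. All 9 genes had a positive log2 fold change, with a median of 0.15 beside 0.01 over all genes. Of them, 7 stayed under 0.25, as did 64.6% of all genes in absolute value. CFB and CD55 did not meet the p criterion in this pair (edgeR's exact binomial test, adjusted p = 0.951 and 0.128). Hypo-Migs against CD147KO-Migs addresses CD147 on the Migs. There 0 of the 9 genes passed (5.04% of all genes did, 2.6% higher and 2.44% lower). Their median log2 fold change was -0.20 beside 0.01 over all genes. In normo-Migs against CD147KO-Migs, SERPING1 alone passed (4.91% of all genes did, 2.36% higher and 2.55% lower), and the median was -0.36 beside 0.00 over all genes.

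Among Mig libraries, 8 of the 9 genes had their lowest level with normo-Migs, CD55 being the exception with its lowest level with CD147KO-Migs. Over all genes tested, 34.8% were lowest with normo-Migs. The highest level came with CD147KO-Migs (32.5% of all genes) for C3, CFB, C1R, C1S, SERPING1 and CD59, and with hypo-Migs (34.2%) for CFI, CD46 and CD55. Most steps between hypo-Migs and the other Mig libraries were small. For C1R, the log2 fold change was 0.22 from normo-Migs to hypo-Migs and -0.31 for hypo-Migs against CD147KO-Migs, and for C3 these values were 0.14 and -0.20. In those pairs, 38.8% and 30.9% of all genes tested had a larger absolute change than C1R, and 51.6% and 40.9% a larger one than C3. In normo-Migs against CD147KO-Migs, C1R stood at -0.52 and C3 at -0.34. There 3 of the 9 genes stayed under 0.25 in absolute value, beside 63.4% of all genes.

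**Figure D3:**
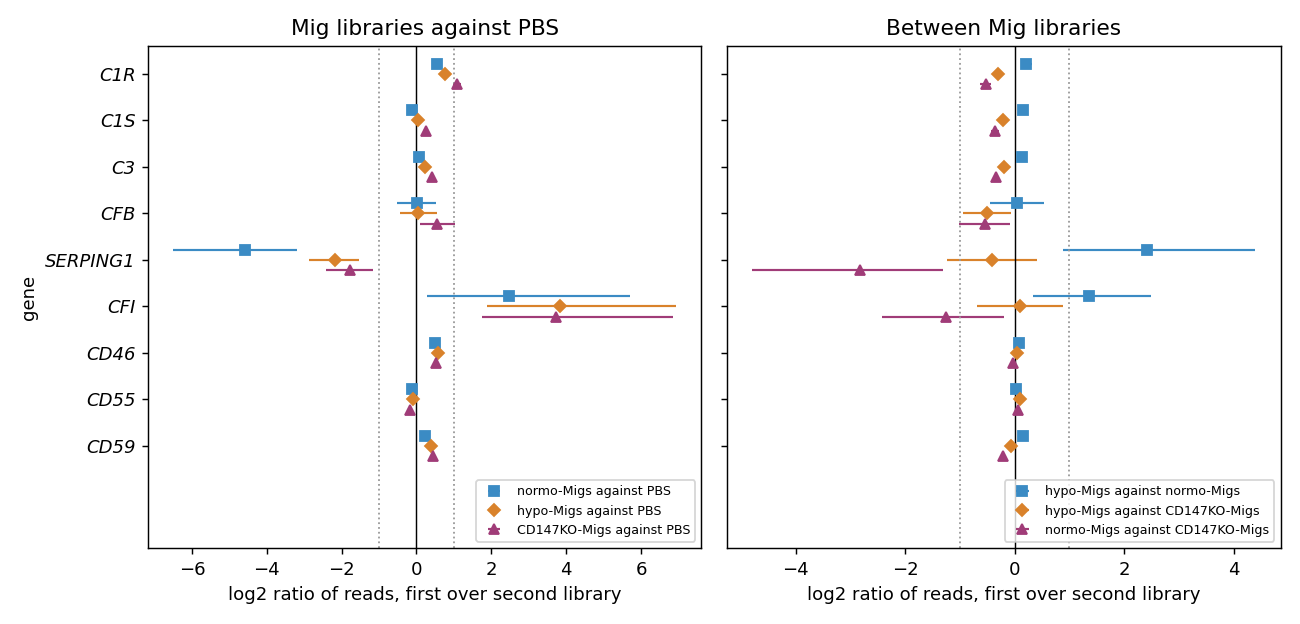
Log2 ratio of reads, first over second library, for the 9 genes, with exact 95% intervals for counting error. Left, Mig libraries against PBS. Right, pairs of Mig libraries. Dotted lines mark the 2-fold limit. SERPING1 and CFI have wide intervals that lie wholly on one side of 0 against PBS, and C1R with CD147KO-Migs lies at the limit.

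The rest of the complement system was represented by 54 other genes, of which 25 had enough reads for testing and 15 had 0 reads in every library. C1QA, C1QB and C1QC, which encode the recognition part of C1, were among those at 0, as were MBL2 and FCN1 of the lectin pathway and C7, C8A and C8B of the membrane pore. Of the 25 genes tested, 8 passed with hypo-Migs against PBS (6 higher, 2 lower), 8 after normo-Migs (6 higher, 2 lower) and 11 after CD147KO-Migs (8 higher, 3 lower). Over all genes tested, 28.3%, 27.2% and 27.5% passed in these contrasts. C4BPA and CSMD1 reached 10 reads only with Migs, so the filter partly fixed their rise against PBS. The median log2 fold changes of the list were 0.38, 0.34 and 0.77, beside 0.05, 0.03 and 0.04 over all genes. Between Mig libraries, 1 gene passed in hypo-Migs against normo-Migs (4.87% of all genes did), 0 in hypo-Migs against CD147KO-Migs (5.04%) and 2 in normo-Migs against CD147KO-Migs (4.91%). Among those, ITGAX, which had 20 reads with PBS, 0 after normo-Migs, 14 after hypo-Migs and 12 after CD147KO-Migs, passed in both pairs with normo-Migs, and C4A passed in the last. ITGAX and C4A had under 100 reads in every library and were named after their values were seen.

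The substrates of C1s had few reads. C4A and C4B, which are nearly identical and can split reads, together had 48 reads with PBS, 76 after normo-Migs, 98 after hypo-Migs and 134 after CD147KO-Migs. Their summed ratio to PBS was 1.61 (interval 1.11 to 2.36), 1.77 (interval 1.24 to 2.56) and 2.76 (interval 1.97 to 3.92), in the order normo-Migs, hypo-Migs and CD147KO-Migs. Among Mig libraries the summed ratio was 1.10 for hypo-Migs over normo-Migs (interval 0.807 to 1.504), 0.641 for hypo-Migs over CD147KO-Migs (interval 0.489 to 0.838) and 0.583 for normo-Migs over CD147KO-Migs (interval 0.434 to 0.778). C2 had 15, 7, 5 and 11 reads in the order PBS, normo-Migs, hypo-Migs and CD147KO-Migs. CFD, the protease that activates factor B, was abundant at 54.5, 70.3, 69.8 and 80.8 FPKM in that order and did not pass in any pair, nor did C5, which had 87 to 162 reads.

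Of the other fluid-phase regulators, C4BPA, CLU and VTN passed against PBS with every kind of Migs. C4BPA, the alpha chain of the C4b-binding protein, had 1 read with PBS and 93, 128 and 99 after normo-Migs, hypo-Migs and CD147KO-Migs, a ratio of 111 after hypo-Migs whose interval ran from 19.6 to 4417. C4BPB, its beta chain, had 4896 reads with PBS and 2683, 2952 and 2468 with the Migs in that order, and the ratios to PBS were 0.557, 0.523 and 0.499. The ratios of the chains thus lay on opposite sides of 1, and C4BPB passed against PBS with CD147KO-Migs alone, at the limit (interval of the ratio 0.475 to 0.523). CLU, or clusterin, an inhibitor of pore assembly, rose with all Migs, with 2291 reads with PBS and 10955, 14620 and 12711 with the Migs, and ratios of 4.86, 5.53 and 5.49. VTN, or vitronectin, another inhibitor of pore assembly, fell with all Migs, from 561 reads to 188, 179 and 234.

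Of the other membrane regulators and receptors, CSMD1 had 0 reads with PBS and 328, 420 and 341 after normo-Migs, hypo-Migs and CD147KO-Migs. That is 111-fold, 121-fold and 112-fold higher when 3 reads are taken as the floor of the PBS library. The exact 95% intervals of the ratio began at 89.9, 98.3 and 91.0. CR2, the receptor for C3d, rose from 62 reads to 808, 1039 and 804, and C5AR2, a receptor of C5a, from 159 to 698, 812 and 751. C5AR1 had 80, 100, 140 and 154 reads and did not pass. THBD, which promotes the inactivation of C3b, had 149 to 219 reads and did not pass in any pair. ITGB2, the beta chain of complement receptor integrins, had 281 reads with PBS and 171, 194 and 135 with the Migs, and passed with CD147KO-Migs (log2 fold change -1.06). C1QBP, a binding protein of C1q found mainly in mitochondria, was at 130 to 162 FPKM with no pair past the criteria. None of the genes with at least 100 reads in this and the foregoing groups passed between Mig libraries.

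**Figure D4:**
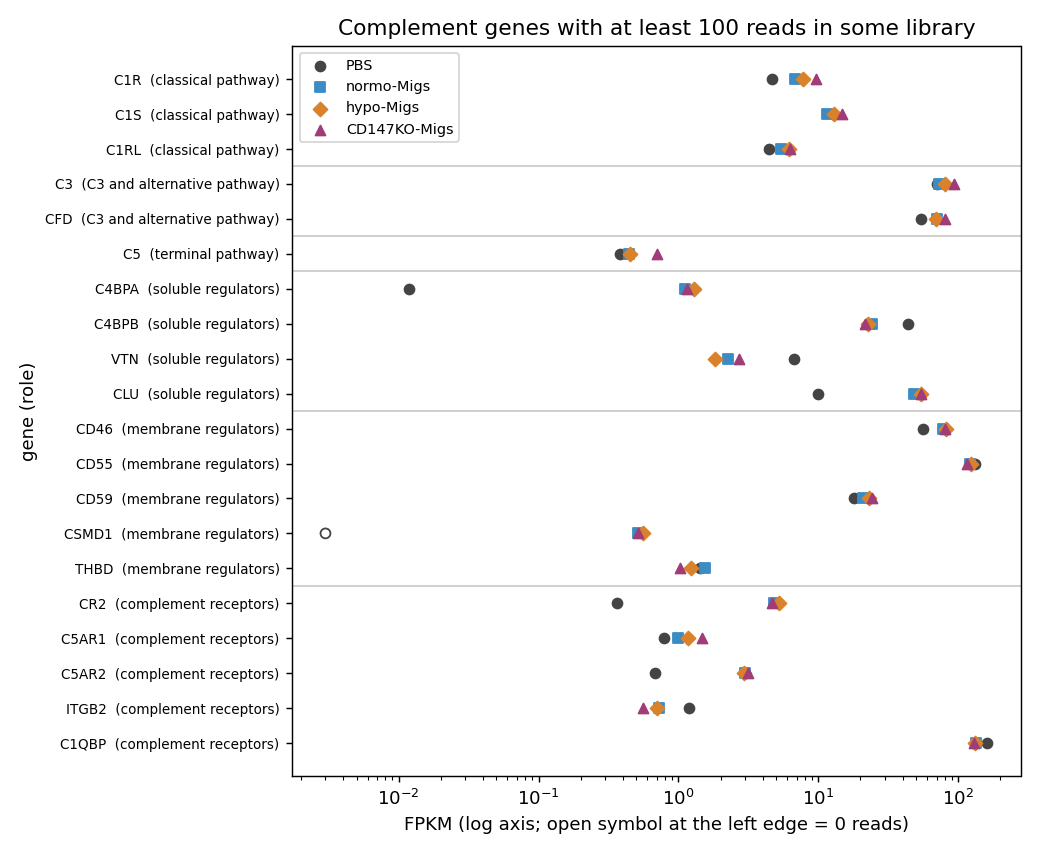
FPKM (log axis) of 20 complement genes with at least 100 reads in some library, grouped by role, with 1 point per library. An open symbol at the left edge marks 0 reads. The Mig libraries lie close together for most genes, and C4BPA, CLU, CSMD1, CR2 and C5AR2 lie apart from PBS on the high side and VTN and C4BPB on the low side.

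Many complement genes belong to the acute-phase response of hepatocytes, so the genes of that response outside complement were set beside them. Of 18 such genes, 9 were tested and 5 had 0 reads in every library, CRP, ORM1, ORM2, SAA4 and SERPINA3. Against PBS, 8 of the 9 tested genes passed with hypo-Migs (7 higher, 1 lower), and 7 each with normo-Migs and CD147KO-Migs (6 higher, 1 lower), beside 28.3%, 27.2% and 27.5% of all genes. FGA, FGB, FGG, SAA2 and LBP reached 10 reads only with Migs, so the filter partly fixed their rise against PBS and these counts. The fibrinogen chain FGB had 0 reads with PBS and 561, 827 and 832 after normo-Migs, hypo-Migs and CD147KO-Migs. That is 190-fold, 239-fold and 274-fold higher at the floor of 3 reads, and the exact 95% intervals of the ratio began at 154, 194 and 223. FGA had 0, 395, 493 and 462 reads in the order PBS, normo-Migs, hypo-Migs and CD147KO-Migs, FGG 6, 205, 322 and 381, and ceruloplasmin (CP) 63, 631, 996 and 948. SAA1, which has a near-identical copy in SAA2, had 20, 241, 171 and 307 reads and was lower with hypo-Migs than with CD147KO-Migs (log2 fold change -1.02, edgeR's exact binomial test, adjusted p = 2.03e-12). In the same pair LBP (3, 2, 21 and 2 reads) and A2M (12, 23, 30 and 10 reads), named after their values were seen, were higher with hypo-Migs, and LBP also passed as higher with hypo-Migs than with normo-Migs. No fibrinogen chain passed between Mig libraries, the ratio farthest from 1 being that of FGG for normo-Migs over CD147KO-Migs (0.553, interval 0.464 to 0.657). SERPINA1, also named after its values were seen, was the gene that passed as lower in each contrast with PBS. It had 25, 2, 9 and 10 reads in the order PBS, normo-Migs, hypo-Migs and CD147KO-Migs. Against PBS, LBP and A2M passed with hypo-Migs alone. C3 and CFB, by contrast with the fibrinogen chains, CP and SAA1, stayed within 1.46-fold of PBS, a difference that was not tested.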

How the data were processed

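MHCC-97H cells were sequenced in 4 conditions with 1 library each. The authors deposited raw counts per gene, with no normalization, and a second table of FPKM, in which the authors divided reads by gene length and library size. The submitters' processing notes name CASAVA 1.8, fastp, HISAT2 2.0.5, featureCounts 1.5.0-p3 and hg38, and the study describes poly-T selection and random hexamers, whereas the labels name a SMARTer kit. Handling of strands and of reads shared by genes was not given in the sources used here.

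Groups came from the labels. The tools were edgeR 4.0.16 and DESeq2 1.42.0 in R 4.3.3, and pandas 2.3.3 and matplotlib 3.10.9 in Python 3.11.15. Genes with 10 or more reads in some library (19895) were scaled by TMM, the 6 pairs of libraries were compared by edgeR's binomial test with Benjamini-Hochberg adjustment, and a prior count of 2 entered each log2 fold change. The quasi-likelihood test needs replicates and was not used. The procedure was tested on simulated data in which only more abundant genes were given changes, so that test does not cover SERPING1 and CFI. Exact binomial intervals were computed for shares and ratios, and Wilson intervals for CPM. A count of 0 allows up to 3 reads, 0.0885 CPM with PBS and 0.0745 CPM with hypo-Migs.

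Named were all 9 members, genes of the wider complement and acute-phase lists with at least 100 reads in some library, the 5 genes nearest in pattern to the member of widest range, and genes overlapping a member. Values of 2 genes that this rule names are not reported here. The members and lists were chosen with earlier results of these data known, and the exceptions are marked in the text. Of the alternative settings, 12 concerned scaling, filters, prior count, the FPKM table, assumed spread, DESeq2, the fold alone and gene type, and 2 were added after the data were seen. Upstream sequences came from RefSeq (GRCh38.p14). Protein and imaging experiments of the study were not analysed here.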

Additional observations from a re-analysis of the deposited data

How the results depend on the processing

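Without replicates every call rests on counting error, so the assumed spread between cultures decided most. With DESeq2, which took the 4 libraries as replicates of each other to estimate the dispersion, 0 of the 9 members, 0 of the wider complement list and 0 of all genes passed in any pair. Differences between the libraries entered that dispersion as spread, which left little room for any gene to pass. No conclusion about a gene is drawn from that setting. At an assumed coefficient of variation of 0.4, 1 member passed with hypo-Migs against PBS, 1 with normo-Migs and 0 with CD147KO-Migs, and 0 between Mig libraries, beside 1637, 1533 and 1576 of all genes against PBS and 0, 1 and 2 in hypo-Migs against normo-Migs, hypo-Migs against CD147KO-Migs and normo-Migs against CD147KO-Migs. The wider list then gave 4, 5 and 4 genes against PBS and 0 between Mig libraries. At 0.1, normo-Migs against PBS kept 1 member and hypo-Migs against normo-Migs 0, with 261, 227 and 281 of all genes in the pairs of Mig libraries in the same order, and the wider list gave 1 gene in normo-Migs against CD147KO-Migs. With the coefficient of 0.0746 estimated over the Mig libraries, an alternative chosen after seeing the data, these pairs gave 335, 340 and 348 genes, and the members called were 1 in normo-Migs against PBS and 0 in hypo-Migs against normo-Migs.

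At least 10 reads in every library removed SERPING1 and CFI by construction, leaving 0, 0 and 1 members for hypo-Migs, normo-Migs and CD147KO-Migs against PBS and 0 in hypo-Migs against normo-Migs and in normo-Migs against CD147KO-Migs. All genes called then numbered 2745, 2685 and 2747 against PBS and 235, 218 and 241 between Mig libraries, and the wider list gave 4 genes with hypo-Migs and 4 with normo-Migs against PBS, 0 in hypo-Migs against normo-Migs and 1 in normo-Migs against CD147KO-Migs. On the scale log2(FPKM + 1), which compresses low levels, 0 members passed the fold criterion in any pair, the wider list gave 5, 5 and 5 genes against PBS and 0 between Mig libraries, and all genes numbered 1674, 1619, 1658, 56, 80 and 66 in the order of pairs used here. On the scale log2(FPKM + 0.1), 1 member passed in normo-Migs against PBS and 1 in hypo-Migs against normo-Migs, and the wider list gave 0 genes in hypo-Migs against normo-Migs and 0 in normo-Migs against CD147KO-Migs. The fold change alone, with no test, gave 1869, 1816 and 1928 genes between Mig libraries, 2 members in normo-Migs against CD147KO-Migs, and 3 genes of the wider list in each pair of Mig libraries that includes hypo-Migs. Protein-coding genes alone gave 3682 and 3608 genes with hypo-Migs and normo-Migs against PBS, 365, 385 and 422 between Mig libraries, and 2 members in normo-Migs against CD147KO-Migs.

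The direction of a member reversed for 2 values near 0. C1S with hypo-Migs against PBS was -0.0014 on the log2 scale with total reads in place of TMM. CFB with normo-Migs against PBS was -0.012 with DESeq2 size factors, -0.049 with total reads, -0.0035 on log2(FPKM + 1), -0.010 on log2(FPKM + 0.1) and -0.018 with DESeq2 over the 4 libraries. Of the other comparisons of member fold changes with an alternative, 673 kept their direction and their side of the criteria, 36 no longer passed and 2 newly passed (CFI in normo-Migs against CD147KO-Migs, with protein-coding genes alone and with the fold change alone). Leaving the PBS library out of the scaling and filter, also chosen after seeing the data, moved no count between Mig libraries by over 1.5 times. No paired analysis was possible because each condition had 1 library. Depth limits SERPING1, CFI and CFB, which had under 100 reads in every library, so that their ratios carry wide intervals.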
